A study of Homo sapiens with 12 samples.

Results

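The comparison described here is the difference between 2 lines, both labelled HCT 116, while both were under actinomycin D (Act D). HCT 116 is a human colorectal carcinoma line, and both lines are labelled p53-/-, so the controls carry that deletion too. One line is HCT 116 p53-/- itself. The other is labelled HCT 116 p53-/- RPL3 KO, and the study's methods describe it as a derived sub-line, uL3Δ, in which uL3, the ribosomal protein encoded by RPL3, is stably silenced. Both had received 5 nM Act D for 24 h. The 6 libraries were chosen by these labels alone, 3 of each line, out of 12 in the series, and the other 6 are the same lines with vehicle. That the sub-line derives from HCT 116 p53-/- rests on the labels and the study's description and was not tested. It is a single line, so what belongs to uL3 and what belongs to the derivation of that line cannot be told apart.

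Act D intercalates into DNA, and at low doses it blocks RNA polymerase I, which transcribes the ribosomal RNA genes in the nucleolus, before it blocks the other polymerases. Ribosomal proteins that no longer enter new subunits can then bind MDM2 and stabilise p53, and some of them, uL3 among them, have been studied for roles outside the ribosome in cells without p53. The question the comparison answers is which transcripts still separated the lines after the drug.

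The labelled target did not separate them. RPL3 (ENSG00000100316, hg38 chromosome 22, 39312882 to 39320389) was at 1137, 1132 and 1112 CPM (reads of the gene scaled to a common library size) in the 3 HCT 116 p53-/- libraries and at 1259, 1132 and 1279 CPM in the 3 libraries labelled uL3Δ. The groups overlapped, and the log2 fold change of 0.12 (SE 0.08) did not pass the test (adjusted p = 0.187), nor with scaling by library size alone, where it was -0.13 (adjusted p = 0.25). A gene-level count does not see the protein, and a knockout allele can still be transcribed. The study's methods describe stable silencing, and neither the allele nor the protein was tested here. The samples are called the libraries labelled uL3Δ throughout.

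The 6 libraries held 10087925 to 15293003 assigned reads, and the second and the third library labelled uL3Δ were the shallowest. Of 15692 genes tested, the first principal component of all 12 libraries took 84.8% of the variance and separated the lines, and the second took 3.48% and separated the treatments. Of 18 markers of colonic epithelium, 8 averaged at least 1 CPM in HCT 116 p53-/- and 6 in the libraries labelled uL3Δ. CDX1 and GUCY2C were at 0 in all 6 libraries, and VIL1, CDH17 and HNF4A averaged under 1 CPM in both lines. The 10 fibroblast markers summed to 10.4 to 14.9 CPM and to 96.6 to 117 CPM respectively, with FAP at 0 in all 6. Of the 5 tested, 4 were higher in the libraries labelled uL3Δ and 1 lower (80% and 20%, beside 35.1% and 35.3% of all genes). COL3A1 averaged 0.694 and 55.9 CPM, and COL1A1, the lower one, 10.2 and 4.35 CPM. The 11 blood cell markers summed to 8.85 to 13.5 and 39.9 to 40.7 CPM, with CD3D, CD3E and MS4A1 at 0 in all 6. All 3 tested were higher in the libraries labelled uL3Δ, CD68 averaging 8.91 and 28.2 CPM. The 10 endothelial markers summed to 4.504 to 7.47 and 10.8 to 12.4 CPM, the 12 lung markers to 13.2 to 14.2 and 23.3 to 26.8 CPM with SFTPA1, SFTPA2 and SFTPC at 0 throughout, and the 13 liver markers to 4.396 to 6.43 and 5.53 to 6.15 CPM. The 9 squamous markers, SFN above all, summed to 262 to 291 and 25.1 to 28.1 CPM. The part of other cells in any result was not tested, and in bulk RNA fewer cells of a kind and less RNA per cell cannot be told apart.

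Genes that marked one line with vehicle were not quite at 0 in the other. The 33 genes that averaged at least 20 CPM in the vehicle libraries labelled uL3Δ and at most 0.2 CPM in the parental ones stood, by the median gene, at 0.777% to 0.838% of their uL3Δ-labelled level in the 3 HCT 116 p53-/- libraries with Act D. The 20 genes typical of HCT 116 p53-/- by the same limits stood at 0.610%, 0.758% and 0% of the parental level in the libraries labelled uL3Δ, in the order of their numbers. The third library was thus apart from the other two. Where these reads came from, and their part in the largest fold changes, was not tested.

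With Act D, 11043 of 15692 genes tested (70.4%) differed between the lines at an adjusted p under 0.05. In the libraries labelled uL3Δ 5503 genes were higher (35.1%) and 5540 lower (35.3%), and 5824 (37.1%) also differed by at least 1 on the log2 scale. The 3 and 3 libraries did not overlap in 11628 genes (74.1%), those labelled uL3Δ above in 5720 (36.5%) and below in 5908 (37.6%). Scaling by library size alone, which moved the median log2 fold change of all genes from -0.02 to -0.26, gave 4244 higher and 6825 lower, so the even split holds relative to the usual scaling only. Leaving out the first library labelled uL3Δ, the deepest of its group, gave 10520 called genes.

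**Figure D1:**
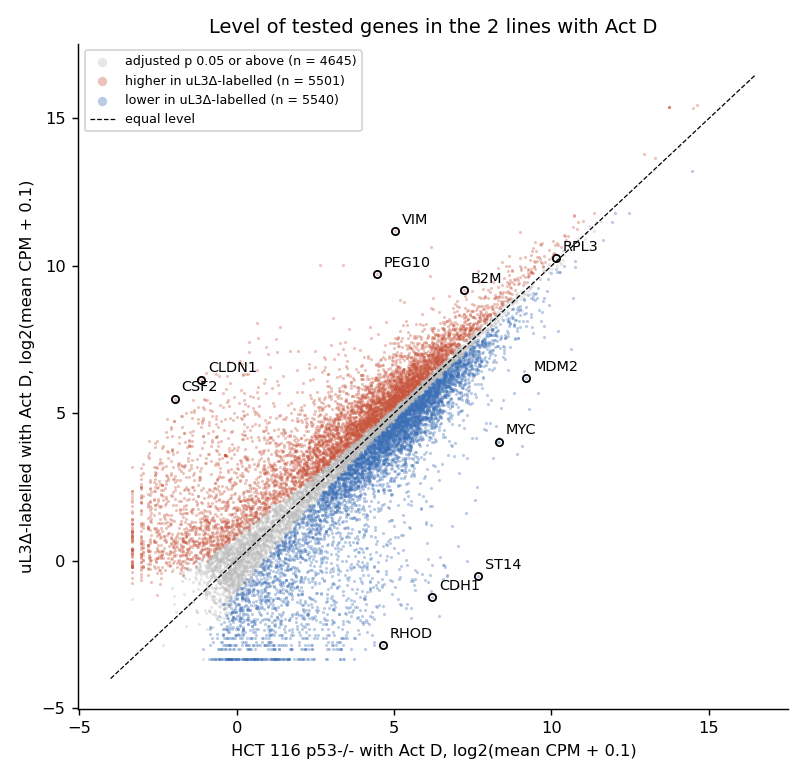
Each point is one of 15686 tested genes (Y-linked genes are not drawn), with the log2 of mean CPM plus 0.1 over 3 HCT 116 p53-/- Act D libraries on the horizontal axis and over 3 uL3Δ-labelled Act D libraries on the vertical axis. Red and blue mark genes past an adjusted p of 0.05, and the dashed line marks equal level: RPL3 lies on it, while VIM, PEG10 and CLDN1 lie far above and ST14, CDH1 and RHOD far below.

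Among genes that averaged at least 20 CPM in one line, those furthest below in the libraries labelled uL3Δ included RHOD, IRX4, LAD1, ST14 and SERPINB5. RHOD, a small GTPase (chromosome 11, 67056847 to 67072017), was at 23.9, 27.1 and 23.2 CPM in HCT 116 p53-/- and left 1 read in the other line, a ratio of 773 with a 95% counting interval of 138 to 30545. IRX4, a homeobox factor, likewise left 1 read against 18.3, 26.8 and 16.4 CPM. LAD1, an anchoring filament protein, fell from 87.9, 91.2 and 80.7 CPM to 0.291, 0.228 and 0 CPM. ST14, the membrane protease matriptase, stood at 198, 207 and 201 CPM and 0.873, 0.914 and 0 CPM, SERPINB5 (maspin) at 133, 125 and 134 CPM and 0.436, 0.799 and 0.116 CPM. An adjusted p under 0.05 and no overlap of the 6 libraries were conditions for naming these 5 genes, so their separation is no separate result.

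The 6 furthest above, with the same limit of 20 CPM, were CSF2, LINC01551, PDGFRA, SLC38A4, CLDN10 and PRSS21. CSF2, the cytokine GM-CSF (chromosome 5, 132073789 to 132076170), was at 0.249, 0.135 and 0.0804 CPM in HCT 116 p53-/- and 50.8, 45.3 and 38.6 CPM in the libraries labelled uL3Δ. PDGFRA, a receptor of platelet-derived growth factor, stood at 0.125, 0.0676 and 0.161 and 33.5, 22.7 and 27.6 CPM. The amino acid transporter SLC38A4 stood at 0.187, 0.406 and 0.402 and 74.6, 68.98 and 68.99 CPM, and the tight junction protein CLDN10 at 0.561, 0.2705 and 0.402 and 83.5, 76.5 and 87.2 CPM. PRSS21, a serine protease, stood at 0.436, 0.609 and 0.0804 and 81.7, 66.2 and 77.1 CPM. The noncoding LINC01551 averaged 0.161 and 42.3 CPM, but the posterior standard deviation that RSEM gave its count averaged 78.7% of the count. No overlap was again a condition of the choice. The fitted log2 fold changes of these 6, the largest under that condition, ran from 7.55 to 8.05.

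**Figure D2:**
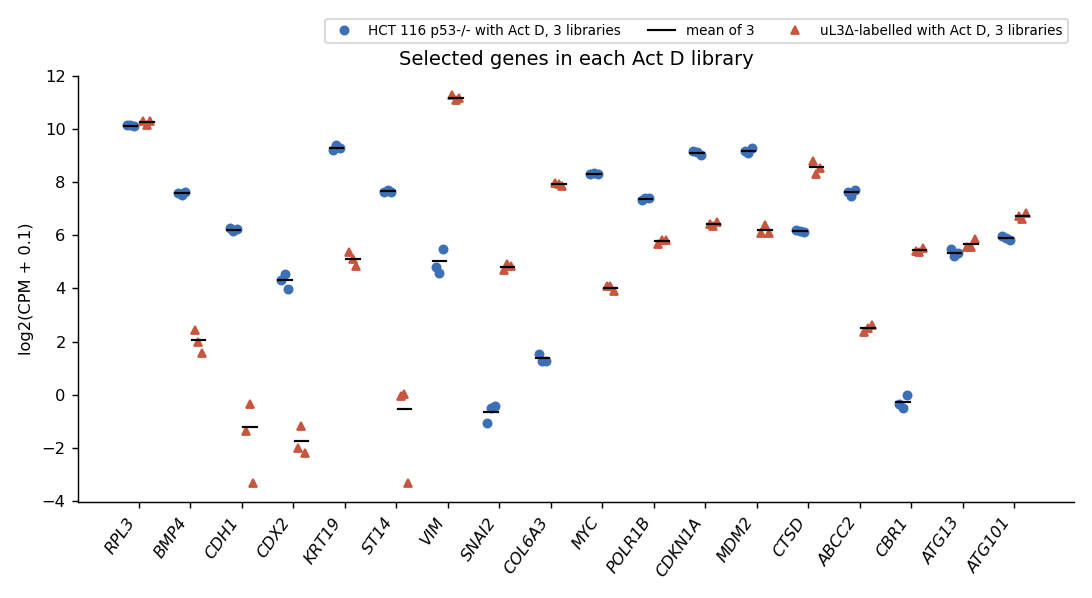
Circles are the 3 HCT 116 p53-/- and triangles the 3 uL3Δ-labelled Act D libraries, drawn on a log2 scale of CPM plus 0.1 for 18 genes, with a black bar at the log2 of each mean plus 0.1. RPL3 overlaps between the lines, ATG13 lies close, and the other genes are apart, with the third uL3Δ-labelled library at 0 for CDH1 and ST14.

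Epithelial cells hold together through cadherin and claudin junctions and keratin filaments, and lose them in epithelial-mesenchymal transition (EMT). In the libraries labelled uL3Δ, 8 of 58 junction and polarity genes tested were higher and 42 lower. These are 13.8% and 72.4%, beside 35.1% and 35.3% of all genes. Their median log2 fold change was -2.03 against -0.02 over all genes. E-cadherin (CDH1) was at 76.6, 71.1 and 75.1 CPM in HCT 116 p53-/- and 0.291, 0.685 and 0 CPM in the other line. GRHL2, a factor that activates E-cadherin and claudin genes, left 2 reads against 13.4 CPM. RAB25, a GTPase of apical recycling, fell from 41.2 to 0.225 CPM. The list did not move in 1 direction: CLDN1 rose from 0.374, 0.541 and 0.161 CPM to 69.7, 65.4 and 76.6 CPM. PARD3, a polarity protein, rose by 1.75 on the log2 scale. CTNNB1 (β-catenin) averaged 513 and 507 CPM with overlapping groups.

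Keratins also moved both ways. Of 16 tested, 5 were higher and 9 lower (31.25% and 56.25%, beside 35.1% and 35.3% of all genes), with a median of -2.33. KRT19 was at 594, 672 and 621 CPM in HCT 116 p53-/- and 41.7, 34.3 and 28.6 CPM in the libraries labelled uL3Δ. KRT15, KRT13 and KRT23 fell to under 1 CPM from means of 19.2, 6.99 and 5.92 CPM. KRT8 and KRT18, the partners of simple epithelial filaments, moved little and in opposite directions, by -0.49 and 0.63. KRT7 rose from 2.68 to 76.9 CPM. Among squamous markers SFN (14-3-3σ) fell from 264 to 25.3 CPM, and KRT14 was at 0 in the libraries labelled uL3Δ against 1.34 CPM.

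Lineage factors moved both ways. Of 27 tested, 14 were higher and 12 lower (51.9% and 44.4%, beside 35.1% and 35.3% of all genes). The intestinal factor CDX2 was at 19.7, 23.5 and 15.7 CPM in HCT 116 p53-/- and 0.145, 0.343 and 0.116 CPM in the other line, and ONECUT3 had no read there against 9.61 CPM, at least 27.6-fold lower with 3 counts a library as the floor. FOXA2, a pioneer factor of endoderm, was at 0.187, 0.135 and 0.322 and 23.4, 18.2 and 18.8 CPM. MEIS1 and SOX2 rose to 5.802 and 5.39 CPM from under 1 CPM. Of 28 HOX genes, which set position along the body axis, 15 were higher and 4 lower (53.6% and 14.3%). HOXC10 rose from 1.91 to 19.96 CPM, and HOXB13 fell from 11.1 to 1.65 CPM.

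Mesenchymal genes were higher in the libraries labelled uL3Δ. Of 19 EMT regulators and mesenchymal genes, 15 were higher and 2 lower, with a median of 1.80. These are 78.9% and 10.5%, beside 35.1% and 35.3% of all genes. VIM, the mesenchymal filament vimentin, was at 28.2, 23.9 and 45.2 CPM in HCT 116 p53-/- and 2491, 2184 and 2303 CPM in the other line. The repressors SNAI2 and ZEB1, which silence E-cadherin, stood at 0.374, 0.609 and 0.643 against 25.9, 30.1 and 28.4 CPM and at 1.62, 2.299 and 1.85 against 24.1, 28.7 and 25.3 CPM. The 2 that were lower were ACTA2, smooth muscle actin (6.31 to 0.953 CPM), and CD44, a hyaluronan receptor (358 to 142 CPM).

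Matrix genes were more often higher. Of 51 matrix genes, 29 were higher and 9 lower (56.9% and 17.6%, beside 35.1% and 35.3% of all genes). COL6A3 was at 2.803, 2.299 and 2.33 CPM in HCT 116 p53-/- and 254, 242 and 229.7 CPM in the libraries labelled uL3Δ. LOX, which crosslinks collagen, averaged 0.115 and 18.3 CPM. In the other direction COL12A1 fell from 129, 129 and 132 to 1.45, 1.599 and 0.928 CPM, and COL4A5 and COL17A1 fell from 16.04 and 18.6 CPM to under 1 CPM. LAMA3, a laminin chain, fell by 1.64 on the log2 scale.

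Members of the TGF-β superfamily, its ligands, receptors and inhibitors, moved both ways. Of 41 genes, 24 were higher and 10 lower (58.5% and 24.4%, beside 35.1% and 35.3% of all genes). BMP4 fell from 192, 184 and 197 to 5.31, 3.88 and 2.899 CPM and BMP7 from 5.06 to 0.874 CPM. BMP2 rose from 0.143 to 13.2 CPM, TGFB2 from 0.407 to 11.02 CPM, and follistatin (FST), which binds activins, from 0.331 to 25.1 CPM. Among EGFR family genes, 7 were higher and 7 lower of 15 (46.7% each way). The receptors EGFR and ERBB2 fell by 1.14 and 1.62, and the log2 fold changes of the ligands AREG and EREG were -2.37 and -2.16. HBEGF and NRG4, also ligands, rose from 22.3 and 0.215 to 87.5 and 9.05 CPM, as did the receptor inhibitors LRIG1 and ERRFI1 (by 2.88 and 1.09).

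Of 44 WNT genes, 15 were higher and 17 lower, near the share of all genes. AXIN2 and RNF43, negative regulators that β-catenin induces, fell from 73.2, 69.2 and 74.6 to 2.18, 1.94 and 2.55 CPM and from 11.5 to 1.01 CPM. The receptors LGR4 and LRP5 rose from 7.47 and 34.8 to 60.05 and 191 CPM. LEF1, a partner of β-catenin, rose by 3.47. Of 28 NOTCH genes, 12 were higher and 10 lower (42.9% and 35.7%, beside 35.1% and 35.3% of all genes). The ligand JAG1 rose from 56.8 to 259 CPM and the target HEY1 from 1.03 to 27.6 CPM, while the receptor NOTCH3 fell by 1.96.

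**Figure D3:**
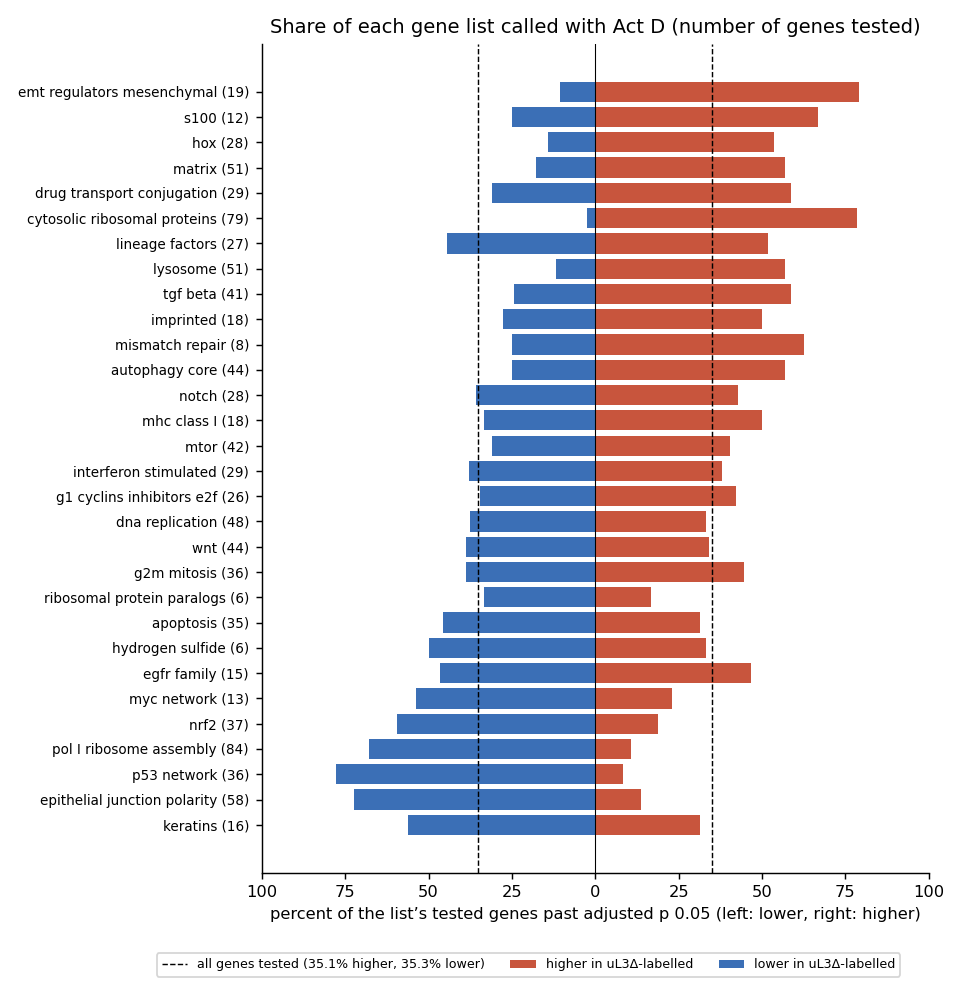
Bars show the percent of each list's tested genes (number in brackets) that were lower (left, blue) or higher (right, red) in the libraries labelled uL3Δ with Act D, ordered by the list's median fold change, and dashed lines mark the 35.1% and 35.3% of all tested genes. The p53 network reaches 77.8% lower, and the ribosomal proteins reach 78.5% higher.

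RNA polymerase I and the factors that assemble ribosomes are the machinery that low-dose Act D acts on. Of 84 such genes, 9 were above and 57 below HCT 116 p53-/- in the other line, with a median of -0.63. These are 10.7% and 67.9%, beside 35.1% and 35.3% of all genes. POLR1A and POLR1B, the 2 largest subunits of the polymerase, stood at 157, 148 and 158 against 39.6, 43.3 and 42.4 CPM and at 163, 169 and 168 against 51.6, 56.2 and 56.8 CPM. URB1 and DDX52, ribosome assembly factors, fell from 155 and 80.4 to 43.9 and 24.1 CPM. No overlap of the groups was a condition for naming these 4 genes. TAF1A, a subunit of the promoter factor SL1, rose from 16.2 to 46.8 CPM, and so did NVL, NOLC1 and SENP3, by 1.25, 0.94 and 0.69. NPM1 (nucleophosmin), the abundant nucleolar chaperone, rose from 1811, 1742 and 1856 to 2362, 2556 and 2321 CPM, a difference that did not pass with scaling by library size alone (adjusted p = 0.118).

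MYC, which activates many of these genes, was at 322, 324 and 314 CPM in HCT 116 p53-/- and 16.8, 17.1 and 14.96 CPM in the libraries labelled uL3Δ, a log2 fold change of -4.29 (SE 0.09, adjusted p = 2.05e-16). Its dimer partner MAX averaged 46.4 and 52.8 CPM and did not pass the test (adjusted p = 0.0693). MXD1, which competes with MYC for MAX, rose from 6.603, 5.14 and 4.504 to 46.04, 40.3 and 31.9 CPM. Of 13 genes of the MYC network, 3 were higher and 7 lower (23.1% and 53.8%, beside 35.1% and 35.3% of all genes).

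MYC and MAX bind the E-box, letters CACGTG, which reads the same on both strands. Of the 84 Pol I and assembly genes, 71 had an entry among the RefSeq promoters (GRCh38.p14, 250 bases before to 50 after the start site). The E-box was in 21 of these 71 (29.6%) and in 2030 of all 27305 promoters (7.43%). Among the members that were lower 17 of 48 held it, among those higher 0 of 8, and among those not called 4 of 15. The promoter stretches of the 4 lower genes with the largest fold changes and an E-box upstream of the start site are shown to place the motif, with the E-box in capitals and the strand of the gene: POLR1G, a Pol I subunit (chr19:45406622-45406643), UTP18 (chr17:51260447-51260472), UTP20 (chr12:101280085-101280104) and UTP4 (chr16:69132623-69132648), the last 3 components of the small subunit processome, all on the + strand.
POLR1G: cctttggatcCACGTGgtctgc
UTP18: gagtgctggtCACGTGgcaagaggct
UTP20: tttttccgtcCACGTGaccc
UTP4: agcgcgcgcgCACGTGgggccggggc
The E-box began at -12, -89, -10 and -16 from the start site. The fitted log2 fold changes of the 4 genes were -1.36, -1.17, -1.09 and -1.07. A match is a description of letters and not of binding.

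The ribosomal proteins themselves lay on the other side. Of 79 cytosolic ribosomal protein genes, 62 were higher and 2 lower (78.5% and 2.53%, beside 35.1% and 35.3% of all genes). Their median was 0.50, and with scaling by library size alone 39 were higher and 10 lower. RPL36A rose from 236, 216 and 221 to 764, 699.7 and 762 CPM, RPL35A from 378 to 1014 CPM and RPL27A from 715 to 1789 CPM. RPS26 and RPS6 were the 2 that fell, with log2 fold changes of -0.51 and -0.38. RPLP0, of the stalk, averaged 2352 and 2586 CPM and did not pass. Ribosomal protein genes have many processed copies that share reads with them, so their counts carry that uncertainty. Of the 6 tested paralogs, RPL39L rose from 0.558 to 16.2 CPM, and RPL22L1 and RPS27L fell by 1.55 and 0.86.

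Genes of the p53 network were mostly lower in the libraries labelled uL3Δ, although both lines are labelled p53-/-. Of 36 tested, 3 were higher and 28 lower (8.33% and 77.8%, beside 35.1% and 35.3% of all genes), with a median of -1.37. MDM2, the ligase that degrades p53, was at 578, 551 and 629 CPM in HCT 116 p53-/- and 67.6, 83.3 and 67.9 CPM in the other line. CDKN1A, the cell cycle inhibitor p21, was at 577, 563 and 523 and 86.8, 82.2 and 90.2 CPM. PHLDA3, an inhibitor of AKT, fell from 44.2, 50.6 and 43.03 to 0.655, 0.685 and 0.232 CPM, TP53INP1 from 44.02 to 2.097 CPM, and FDXR, a mitochondrial reductase, from 104 to 11.8 CPM. The 3 that rose were PMAIP1 (NOXA; 52.4 to 158 CPM), CD82 (6.33 to 24.1 CPM) and GADD45A (38.05 to 53.9 CPM), the last not with scaling by library size alone (0.27, adjusted p = 0.0559).

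Of 35 apoptosis genes, 11 were higher and 16 lower (31.4% and 45.7%, beside 35.1% and 35.3% of all genes), and with scaling by library size alone 6 and 23. The death receptor FAS fell from 34.7 to 5.73 CPM and the BH3 protein BIK from 13.5 to 1.602 CPM. BMF, also a BH3 protein, rose from 0.912 to 13.4 CPM, BOK from 14.2 to 39.6 CPM, and BIRC3, an inhibitor of apoptosis, from 3.12 to 13.1 CPM.

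Cell cycle lists had medians near 0. Of 48 DNA replication genes, 16 were higher and 18 lower, near the 35.1% and 35.3% of all genes, and 9 were higher with scaling by library size alone. Of 36 genes of G2 and mitosis, 16 were higher and 14 lower (44.4% and 38.9%). Members of one pathway parted: CDK1 rose from 149.5 to 333 CPM while its cyclin CCNB1 fell from 275 to 142 CPM. POLA2 and CDC45, of the replication machinery, rose by 1.92 and 1.60, and POLE, TYMS and TK1 fell by 1.07, 1.01 and 1.03. Of 26 G1 genes, 11 were higher and 9 lower (42.3% and 34.6%), and their median of 0.12 changed sign with scaling by library size alone (-0.12). Single G1 genes ran from -2.68, for CDKN1A, to 1.77.

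Autophagy delivers cell contents to the lysosome, and the ULK1 kinase complex, with ATG13 and ATG101, starts it. The study itself turns on these genes, so they are no independent choice. ATG101 was at 63.2, 59.4 and 57.2 CPM in HCT 116 p53-/- and 107, 96.96 and 114 CPM in the libraries labelled uL3Δ, without overlap (log2 fold change 0.82, SE 0.12, adjusted p = 6.15e-06). ATG13 was at 44.9, 37.1 and 40.5 and 47.6, 47.5 and 58.3 CPM, also without overlap (0.32, SE 0.11, adjusted p = 0.0176). ULK1 was at 17.1, 15.3 and 14.6 and 18.5, 19.5 and 19.2 CPM, apart by library but not past the threshold (adjusted p = 0.0919). TFEB, the factor that activates lysosomal genes, was at 1.87, 1.96 and 1.53 and 3.64, 2.63 and 1.62 CPM, with overlap (adjusted p = 0.106). The call of ATG13 was lost with scaling by library size alone (0.08, adjusted p = 0.595), and without the second or the third HCT 116 p53-/- library or the third library labelled uL3Δ (adjusted p = 0.0922, 0.0805 and 0.206). The call of ATG101 held with library size alone (adjusted p = 0.00057). ULK1 passed when only the 6 Act D libraries were fitted (0.28, adjusted p = 0.033). TFEB passed without the third library labelled uL3Δ (0.78, adjusted p = 0.0333). Neither passed in the other settings.

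Of 44 core autophagy genes, 25 were higher and 11 lower (56.8% and 25%, beside 35.1% and 35.3% of all genes), with a median of 0.31. UVRAG, of the class III phosphoinositide kinase complex, rose from 5.11, 5.48 and 7.56 to 48.9, 46.9 and 41.2 CPM. OPTN, an autophagy receptor, rose from 15.3 to 70.9 CPM, and RB1CC1, the scaffold of the ULK1 complex, from 46.2 to 169.6 CPM. ULK2 fell from 5.44 to 1.01 CPM. The WIPI proteins WDR45B and WIPI1 fell by 1.79 and 1.21 on the log2 scale. The receptor SQSTM1 (p62) rose from 374 to 495 CPM, which did not pass with library size alone (adjusted p = 0.278) or without the third library labelled uL3Δ (0.0631).

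Of 51 lysosomal genes, 29 were higher and 6 lower (56.9% and 11.8%), and with scaling by library size alone 24 and 12. The protease cathepsin D (CTSD) was at 73.4, 71.8 and 69.5 and 446, 315 and 373 CPM. CTSC and the hexosaminidase HEXA rose from 34.6 and 23.5 to 188 and 112 CPM, while GAA, the acid glucosidase, fell from 79.2 to 17.3 CPM. Among 42 genes of mTOR, the kinase that holds autophagy back, 17 were higher and 13 lower. These are 40.5% and 31.0%, near the 35.1% and 35.3% of all genes. Their median changed sign under scaling by library size alone (0.18 to -0.06). SESN3, a stress-induced inhibitor, rose from 6.09 to 34.3 CPM, and RPS6KB1, the S6 kinase, fell from 109, 98.2 and 107 to 27.8, 28.2 and 27.2 CPM.

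**Figure D4:**
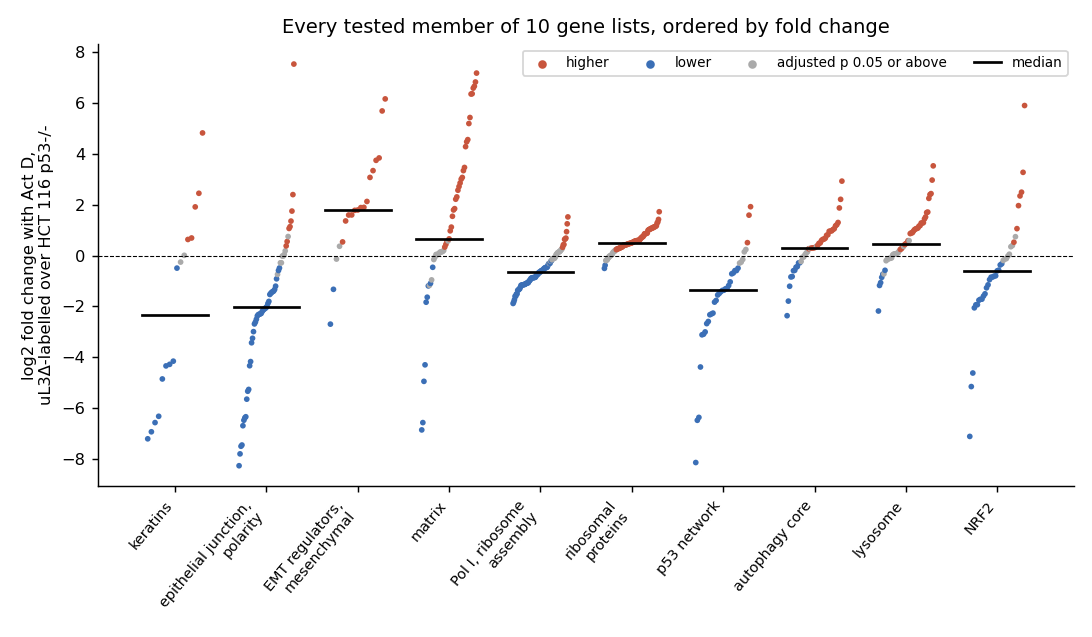
Every tested member of 10 gene lists is a point, with its log2 fold change with Act D (uL3Δ-labelled over HCT 116 p53-/-) on the vertical axis, ordered within a list, and a black bar at the list's median. Red and blue mark members past an adjusted p of 0.05; the ribosomal proteins lie in a narrow band mostly above 0 while keratins and matrix genes spread far to both sides.

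NRF2 is the factor that induces detoxifying and antioxidant genes through the antioxidant response element. Of 37 of its targets and partners, 7 were higher and 22 lower, with a median of -0.60. These are 18.9% and 59.5%, beside 35.1% and 35.3% of all genes. ABCC2, an export pump for conjugates, was at 201, 181 and 209 CPM in HCT 116 p53-/- and 5.02, 5.596 and 6.03 CPM in the libraries labelled uL3Δ. CYP4F11 left 2 reads against 10.2 CPM, and FTL (ferritin light chain) fell by 0.80. The carbonyl reductase CBR1 rose from 0.685, 0.609 and 0.885 to 42.98, 41.7 and 46.4 CPM, and the reductase AKR1B1 from 32.9 to 167 CPM.

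The core of the antioxidant response element, TGACNNNGC, was searched on both strands in the same promoter windows. It was in 8 of the 28 NRF2 list genes with an entry (28.6%) and in 3702 of 27305 promoters (13.6%), again those of genes tested or not. Among the members that were lower 5 of 16 held it, among those higher 1 of 6, and among those not called 2 of 6. The stretches of the members with the largest fold changes of either direction and the motif upstream are shown on the strand of each gene, with the match in capitals: CYP4F11 (chr19:15935005-15935033, - strand), CBR1 (chr21:36069855-36069883, + strand), the malic enzyme ME1 (chr6:83431170-83431198, - strand) and GCLM, of glutathione synthesis (chr1:93909446-93909474, - strand).
CYP4F11: ctgtgcccatGCTGTGTCAccctgagctg
CBR1: tgcgggttctGCAAAGTCAggctagctgg
ME1: tctcctgccaTGACTCAGCgcttctcgca
GCLM: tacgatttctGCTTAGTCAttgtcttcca
The match lay on the strand of the gene in ME1 and on the other strand in the other three. CBR1, with the motif, rose by 5.91, and CYP4F11, ME1 and GCLM, also with it, changed by -7.13, -1.72 and -1.15, so the members that held the motif did not share a direction.

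Of 29 genes of drug transport and conjugation, 17 were higher and 9 lower (58.6% and 31.0%, beside 35.1% and 35.3% of all genes). ABCA1 and ABCG1, lipid exporters, rose from 0.699 and 0.347 to 11.7 and 7.097 CPM. ABCB4, a phospholipid exporter, left 3 reads in HCT 116 p53-/- and was at 5.49 CPM in the other line. MVP, the vault protein, fell from 79.1 to 28.7 CPM, and GSTP1 was lower by a log2 fold change of -0.35.

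Of 18 imprinted genes 9 were higher and 5 lower (50% and 27.8%, beside 35.1% and 35.3% of all genes). PEG10 rose from 22.9, 19.2 and 23.3 to 849, 865 and 813 CPM and SNRPN from 1.49, 0.811 and 1.37 to 178, 155 and 183 CPM. PLAGL1 fell from 30.02, 30.02 and 31.1 to 0.509, 0.457 and 0.116 CPM. IGF2, a growth factor, rose by 2.22. Of 18 genes of MHC class I presentation, 9 were higher and 6 lower (50% and 33.3%), and 5 were higher with scaling by library size alone. Their light chain B2M rose from 148, 148 and 147 to 554, 614 and 581 CPM, and the heavy chain HLA-B, whose reads can be shared with its relatives, fell from 132 to 24.1 CPM. Of 29 interferon-stimulated genes, 11 were higher and 11 lower, near the share of all genes, and their median of 0.17 changed sign with scaling by library size alone (-0.08). ISG15 fell from 57.3 to 3.25 CPM while GBP2 rose from 0.595 to 38.4 CPM.

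The S100 calcium-binding proteins rose in 8 of 12 cases and fell in 3 (66.7% and 25%, beside 35.1% and 35.3% of all genes). S100A2 rose from 19.9, 18.6 and 18.1 to 241, 231 and 257 CPM and S100P from 0.383 to 35.1 CPM, and S100A14 fell from 127, 113 and 104 to 2.25, 2.06 and 2.203 CPM. Of 8 mismatch repair genes 5 were higher and 2 lower (62.5% and 25%), and 3 were higher with scaling by library size alone. PMS2, an endonuclease of the pathway, fell from 52.3 to 21.2 CPM. Of 6 tested genes of hydrogen sulfide metabolism, MPST and TST rose by 0.71 and 0.51, and SQOR, SUOX and CTH fell by 1.19, 0.99 and 0.44. The call of TST was lost with scaling by library size alone (0.28, adjusted p = 0.143) and without the first library labelled uL3Δ (adjusted p = 0.0534), and that of CTH without the first or the third HCT 116 p53-/- library (adjusted p = 0.0522 and 0.0502).

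To see where the line difference depended on the drug, the line difference with Act D was tested against that in the 6 vehicle libraries, which share no library with it. It differed in 1025 of 15692 genes (6.53%), more positive with Act D in 518 (3.3%) and more negative in 507 (3.23%). Over all genes tested the 2 line differences correlated at a Pearson r of 0.94. Of the genes called in both treatments 9511 had the same direction and 101 the opposite one. A further 1431 genes were called with Act D only and 1573 with vehicle only. Of the 1025 genes, 547 had a smaller and 478 a larger absolute line difference with Act D. The count was 614 without the first library labelled uL3Δ with Act D, and 630 and 669 without the first and the second HCT 116 p53-/- library with Act D.

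In the p53 network 18 of 36 genes were among them (50%, beside 6.53% of all genes). All 18 were more negative with Act D, beside 3.23% of all genes. CDKN1A was at 154, 173 and 159 CPM with vehicle and 577, 563 and 523 CPM with Act D in HCT 116 p53-/-, and at 72.3, 76.6 and 73.9 and 86.8, 82.2 and 90.2 CPM in the libraries labelled uL3Δ. The line difference thus went from -1.13 to -2.68, a change of -1.56 (SE 0.11, adjusted p = 1.06e-06). MDM2 went from 326, 294 and 310.0 to 578, 551 and 629 CPM in the first line and from 116, 99.3 and 106 to 67.6, 83.3 and 67.9 CPM in the second. The death receptor TNFRSF10B turned, with a line difference of 0.51 with vehicle and -0.59 with Act D. SESN2, a stress-induced inhibitor of mTOR, also turned: it was at 12.9, 15.8 and 17.3 and 38.6, 40.8 and 42.5 CPM in HCT 116 p53-/- and at 39.9, 38.5 and 29.9 and 27.9, 24.4 and 21.3 CPM in the libraries labelled uL3Δ. For CDKN1A, MDM2 and SESN2 every HCT 116 p53-/- library with Act D was above every one with vehicle. For MDM2 and SESN2 every library labelled uL3Δ with Act D was below every one with vehicle. These genes were picked from those past the test of this change, so their separation by treatment is no separate result. In the NRF2 list 10 of 37 differed (27.0%, beside 6.53% of all genes), all more negative with Act D.

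Among genes more positive with Act D, SLC19A1, the reduced folate carrier, was at 51.5, 57.6 and 62.8 CPM with vehicle and 9.09, 10.5 and 10.9 CPM with Act D in HCT 116 p53-/-, and at 18.1, 15.6 and 14.9 and 10.9, 8.68 and 10.9 CPM in the libraries labelled uL3Δ. It thus separated the lines with vehicle (-1.83) and did not pass the test with Act D (0.01, adjusted p = 0.967). SYT1, a synaptotagmin, went from -2.23 to -0.52, the kinase TNIK from -1.63 to -0.16, and the WNT effector TCF7L2 from -1.78 to -0.15. AGAP1, a GTPase-activating protein, kept its direction with a smaller difference (-2.89 to -1.26). ARID5B, a chromatin factor, turned from -1.09 to 0.46, the latter not past the threshold with scaling by library size alone (0.22, adjusted p = 0.13). ST6GAL1, a sialyltransferase, and PAQR4 widened, from 1.35 to 3.08 and from 0.24 to 1.91.

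FABP4, a fatty acid carrier, and the matrix protein TGFBI were among the genes most negative by p. FABP4 was at 0.519, 0.826 and 0.181 CPM with vehicle and 7.101, 6.15 and 5.15 CPM with Act D in HCT 116 p53-/- against 863, 978 and 955 and 1025, 1089 and 1047 CPM in the libraries labelled uL3Δ. The parental Act D mean was 0.582% of the other line's for FABP4 and 0.984% for TGFBI, beside the 0.777% to 0.838% found above for the genes typical of that line, whose part in the result was not tested. CSRNP1, an immediate early factor, and PAG1, an adaptor of lipid rafts, kept their direction with smaller differences (3.13 to 1.65 and 3.61 to 2.00). ENSG00000287979, a long noncoding RNA with no symbol, turned from 1.10 to -0.44.

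**Figure D5:**
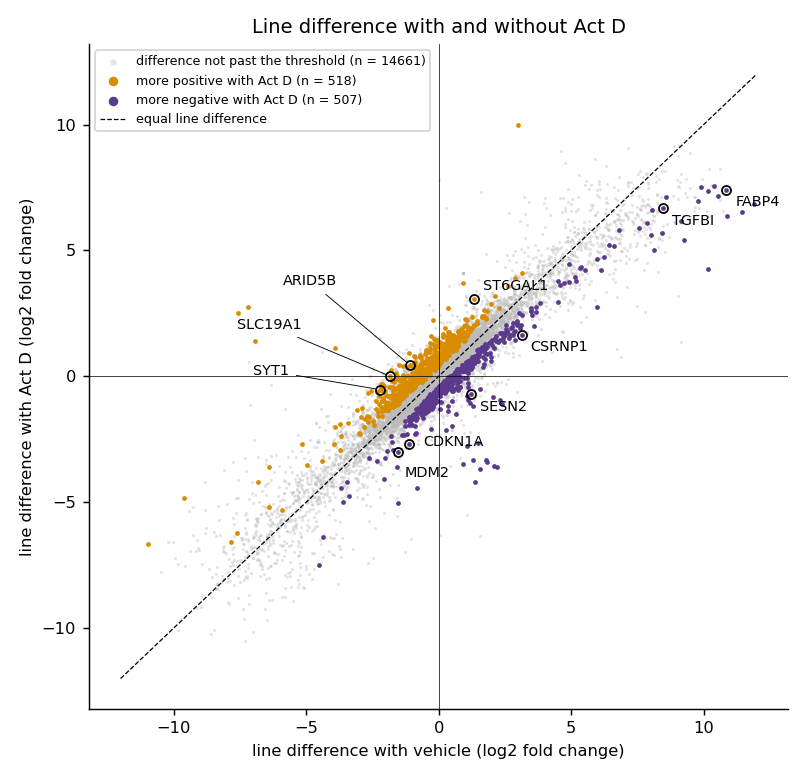
Each of 15686 tested genes is placed by its log2 line difference (uL3Δ-labelled over HCT 116 p53-/-) with vehicle on the horizontal and with Act D on the vertical axis, the dashed line marking equal differences. Orange marks the 518 genes more positive and purple the 507 more negative with Act D past an adjusted p of 0.05; SLC19A1 lies at 0 on the vertical axis and SESN2 below it.

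Autophagy and ribosome genes were tested for the same change. ATG101 had a smaller line difference with Act D than with vehicle (0.82 against 1.39, adjusted p = 0.0476), a call lost with scaling by library size alone (adjusted p = 0.0759), with a replicate block (0.056) and when any of several single libraries was left out (up to 0.122, without the first HCT 116 p53-/- library with Act D). The changes of ATG13, ULK1 and TFEB did not pass (adjusted p = 0.742, 0.253 and 0.763). In the Pol I and assembly list 9 of 84 differed (10.7%, beside 6.53% of all genes), 8 of them more negative with Act D, and POLR1B went from -1.05 to -1.60 (adjusted p = 0.00414). Among the 79 ribosomal proteins 0 passed by edgeR, with 4 at an unadjusted p under 0.05 and 1 called by DESeq2.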

How the data were processed

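Total RNA of the 12 samples was made into TruSeq libraries and sequenced in pairs on a NovaSeq. The authors trimmed the reads, filtered contaminants such as ribosomal RNA, and assigned the rest with RSEM 1.2.25 to Ensembl genes of hg38, giving expected counts that were deposited without normalization, 1 file a library. The counts are per gene in 11 libraries and per transcript in the second HCT 116 p53-/- library with vehicle, whose counts were summed per gene. The deposited files also hold a posterior standard deviation of each count, used only from the per-gene files, to mark uncertain genes. The labels number the replicates as biological, but nothing gives separate batches, so p-values measure the spread between these libraries. Where descriptions number replicates otherwise than titles, titles were followed.

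Expected counts were rounded and tested with edgeR 4.0.16 (quasi-likelihood test in R 4.3.3) on all 12 libraries, with TMM scaling, the filterByExpr filter, 1 coefficient a group, and Benjamini-Hochberg adjustment over the 15692 genes kept of 60617. CPM use the TMM library sizes. Called means an adjusted p under 0.05. The scripts were tested on simulated data. Of the gene identifiers 60261 matched GENCODE 44. Replicate counts differed by more than sampling noise in every pair. Same-numbered libraries of the 2 lines with Act D were not correlated. Gene lists and named genes were chosen with earlier results of these data known. Named were RPL3, ATG13, ATG101, ULK1 and TFEB, members of marker lists and of lists of up to 20 genes, and in longer lists up to 4 a direction with the largest fold change (at least 5 CPM, no overlap) and the highest member. From all genes the 6 a direction with the largest fold change (at least 20 CPM, no overlap) were named, some genes not being reported here. For the change by treatment the 5 smallest p and 5 largest differences a direction were named. Alternatives were DESeq2 1.42.0, other scalings and filters, the 6 Act D libraries alone, a replicate block and leaving out each library.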

Additional observations from a re-analysis of the deposited data

Results flagged for a closer look

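The line difference with Act D differed from that with vehicle in 1025 genes by the interaction test of edgeR at an adjusted p under 0.05. Among the genes named above, the change in log2 line difference was positive with Act D for 11: 1.84 for SLC19A1, 1.74 for ST6GAL1, 1.71 for SYT1, 1.66 for PAQR4, 1.63 for AGAP1, 1.62 for TCF7L2, 1.55 for ARID5B, 1.47 for TNIK, 1.25 for COL12A1, 1.03 for BOK and 1.01 for PARD3.

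It was negative for the p53 network genes PHLDA3 (-2.01), SESN2 (-1.95), CDKN1A (-1.56), MDM2 (-1.47), GADD45A (-1.20), TNFRSF10B (-1.10), FAS (-0.85) and PMAIP1 (-0.56). It was also negative for SFN (-1.06), CBR1 (-1.64), GCLM (-0.57), SQSTM1 (-0.62), ATG101 (-0.57), WDR45B (-0.72), POLR1B (-0.55), CSRNP1 (-1.48), PAG1 (-1.61), ENSG00000287979 (-1.54), JAG1 (-0.78), AREG (-0.57) and LAMA3 (-0.69).

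Genes low in HCT 116 p53-/- and high in the libraries labelled uL3Δ made up the rest, FOXA2 (-4.89), FABP4 (-3.44), PRSS21 (-2.86), TGFBI (-1.79), CBR1 (-1.64), COL6A3 (-1.45) and SNRPN (-1.45). For these genes the part of the low levels found there was not tested. COL12A1 was low on the other side, with a mean in the uL3Δ-labelled Act D libraries at 1.02% of the parental one, and the same holds for it.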

How the results depend on the processing

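The line difference with Act D was called in 10759 to 11676 genes under DESeq2, other scalings, other filters, the 6 Act D libraries alone and a replicate block (10818 genes), and in 10520 to 10780 when each library was left out in turn, with 5108 to 5319 higher and 5283 to 5563 lower. A log2 fold change of at least 1 left 5824 genes, 2946 higher and 2878 lower. The change of the line difference by treatment was less stable. It was called in 1271 genes by DESeq2, 757 with scaling by library size alone, 722 with a replicate block, and 1370 without a filter (826 of them negative), and in 614 to 979 with each library left out, 300 to 481 positive and 314 to 538 negative. A log2 difference of at least 1 left 284, 168 positive and 116 negative. Leaving out the genes nearly exclusive to 1 line with vehicle left 1015, but this could remove only 33 and 20 genes. Of the 33 typical of the uL3Δ label 10 were called, and of the 20 typical of HCT 116 p53-/- 0, beside 6.53% of all genes. The vehicle libraries that chose these genes also enter the comparison. The replicate numbers did not pair the libraries: the deviations of same-numbered Act D libraries of the 2 lines correlated at 0.02, -0.03 and -0.01.

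Scaling by library size alone turned the sign of MAX (-0.058), RPL3 (-0.13), RPLP0 (-0.11) and SLC19A1 (-0.23), none past the threshold in either setting. SLC19A1, near 0, also turned without a filter (-0.024) and ran from -0.078 to 0.069 with each library left out. Over all named genes and settings, 2817 results kept their call and direction, 100 lost the call and 5 gained it. Calls of the change by treatment for AREG, PRSS21, ATG101, PMAIP1, GCLM and LAMA3 were lost in 9 to 12 settings each, for SQSTM1 in 7, FOXA2 and SNRPN in 4, CBR1 in 3, and COL12A1 and FAS in 2. With the replicate block the change by treatment of AREG, PRSS21, ATG101, PMAIP1, GCLM, LAMA3 and SQSTM1 lost its call (adjusted p = 0.0545 to 0.0756), and no other named gene did. Depth limited genes at a few reads in one line, whose fold changes are imprecise, and the cause of the other changes was not tested.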
